A study of Mus musculus with 2 samples.

Results

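Dppa3 and the enzymes that write, copy and oxidise DNA methylation were compared between the second polar body (PB2) and the zygote of the mouse 1-cell embryo. The 9 genes, Dppa3, Dnmt1, Dnmt3a, Dnmt3b, Dnmt3l, Uhrf1, Tet1, Tet2 and Tet3, were taken by symbol from a table of 11262 genes, and all 9 had a row in it. The study asked which transcripts are present in PB2, the small cell that the egg extrudes when it completes meiosis after fertilization. Its series held 1 library of PB2s and 1 library of zygotes without their PB2, both untreated, both from embryos at the late 1-cell stage of mice labelled C57BL/6 (C57BL/6N in the study's methods) that had been collected from the oviduct and cultured in KSOM medium. The zona pellucida was dissolved with acid Tyrode's solution and each PB2 was detached from its zygote with trypsin and pipetting, and each library was amplified from the polyadenylated RNA of a pool.

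Values are TPM, a transcript's level scaled by its length and by the library total, written to 1 decimal. With 1 library of each kind there is no replicate error and no test, so every difference below compares 2 libraries and carries no p-value. The table keeps no read counts, so the depth is unknown and no counting interval can be given. TPM is a share of each library, and molecules per cell were not measured. Higher or lower below means a larger or smaller share. The study describes PB2 as tiny with little ooplasm, so a larger share there need not mean more molecules per cell. A log2 ratio is log2((PB2 TPM + 1)/(zygote TPM + 1)), computed for the 10645 genes with at least 1 TPM in either library. Of the 9 genes, 8 met this minimum and Tet2 did not.

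In mammals, DNA methylation is placed on CpG cytosines by the de novo enzymes DNMT3A and DNMT3B, which work with the catalytically inactive partner DNMT3L. It is copied after replication by DNMT1, which UHRF1 brings to hemimethylated DNA. TET enzymes oxidise methylated cytosine, and the egg's TET3 acts on the paternal genome of the zygote. DPPA3, also called Stella, is a maternal protein that shields the maternal genome from TET3 and binds UHRF1. At the 1-cell stage proteins are made largely from RNA that the oocyte stored, and such RNA is often held with a short poly(A) tail, which cytoplasmic polyadenylation lengthens when it is to be translated.

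Because both libraries were made from polyadenylated RNA, the annotated ends of the members' transcripts are shown first. The sequences are from the GENCODE M21 annotation of GRCm38, 5′ to 3′, using for each gene its longest protein-coding transcript. Each window holds 30 bases at or near the transcript's 3′ end. Capitals mark a poly(A) signal hexamer, AATAAA or ATTAAA, found in the last 40 bases, and the letters TTTTAT or TTTTAAT of the cytoplasmic polyadenylation element where they fall inside the window. The motifs were searched on the transcript strand, and they overlap in TTTTAATAAA.
Dppa3: cagaaatttgtAATAAAagcatttttgtta
Dnmt1: atttcttcaaAATAAAgcgcttctgtcaag
Uhrf1: attgcAATAAAATAAAattctggccgggca
Dnmt3a: atagagcttcAATAAAcatctttatgtttt
Dnmt3b: tttctggttgATTAAAgttgtatttctcta
Dnmt3l: ttcaaatatatcataggattgttactggta
Tet1: gggtggtataaAATAAATTTTATacttcta
Tet2: gagtgtTTTTAATAAAatttatatttattt
Tet3: tgggtgTTTTAATAAATTTTATatttattt

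Of the 9 ends, 7 held AATAAA, Dnmt3b held ATTAAA and Dnmt3l held neither in its last 40 bases. Either hexamer was present in 77.2% of 10570 genes compared that have a complete annotated end. TTTTAT or TTTTAAT occurred in the last 100 bases of 5 members, Dnmt1, Dnmt3a, Tet1, Tet2 and Tet3, and in 19.7% of the 10570 genes. It was absent from the last 100 bases of Dppa3, Uhrf1, Dnmt3b and Dnmt3l. The element begins 48 bases before the end of Dnmt1 and 55 bases before the end of Dnmt3a, upstream of the windows shown. Tet3 held both forms, TTTTAAT at 36 and TTTTAT at 26 bases from the end, as did 1.19% of the genes. The windows of Tet2 and Tet3 were identical at 24 of 30 bases. A match is a description of the letters. The table measures neither which transcript end was present in a library nor the length of any poly(A) tail. Over all genes, the median log2 ratio was 0.24 with TTTTAT or TTTTAAT and 0.20 without. With the GC trend given below removed, these medians were 0.12 and -0.02.

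Dppa3 had the highest zygote level among the genes of the table and was lower in PB2. The 7 other members compared had a log2 ratio above 0, from 0.01 for Dnmt1 to 2.27 for Dnmt3a. Among all 10645 genes compared, 6298 lay above 0 and 4262 below. The sign of Dnmt1 turned under scaling, centring or when either the GC or the length trend was taken out, and that of Dnmt3l when the GC trend was removed. Dnmt3a, Tet3 and Uhrf1 were higher by 2-fold or more in PB2 on the log2(TPM + 1) scale, and Dppa3 was the only member higher by 2-fold or more in the zygote. Across all genes compared, 2009 (18.9%) were higher by 2-fold or more in PB2 and 861 (8.09%) in the zygote. Against this background, 3 of the 8 members (37.5%) and 1 of the 8 (12.5%) passed in these directions. The median log2 ratio of the 8 members was 0.61, beside 0.21 for all genes compared. Under the other ways of processing it ran from 0.32, with Tet2 added, to 0.90, with Tet1 left out by a minimum of 5 TPM. With the same 8 members it ran from 0.35 to 0.69. Centring each ratio on the table's median of 0.21 left 1383 genes higher by 2-fold or more in PB2 and 1291 in the zygote. After centring, 2 members passed in PB2, Dnmt3a and Tet3, and Dppa3 still passed in the zygote.

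**Figure D1:**
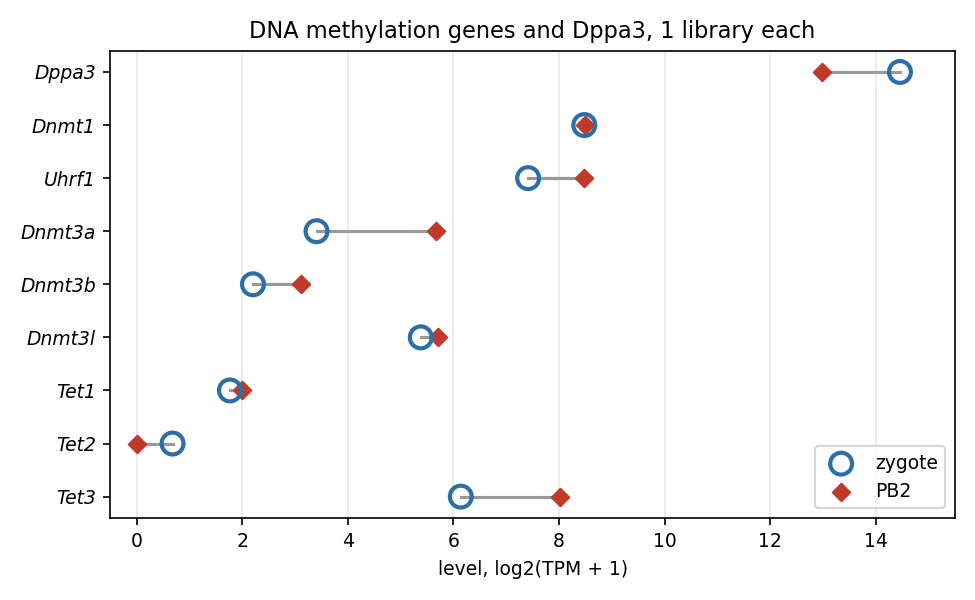
Level of each of the 9 members as log2(TPM + 1) in the zygote library (open rings) and the PB2 library (filled diamonds), 1 library each, joined by a grey line. Dppa3 lies far to the right of the others in both libraries, with its ring (22561.9 TPM) beyond its diamond (8070.2 TPM), and the ring and the diamond of Dnmt1 coincide at 356.1 and 358.9 TPM.

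Dppa3 (ENSMUSG00000046323), the protector of maternal methylation, lies on the plus strand at chr6:122626410-122630272 of GRCm38 and has 4 exons and a transcript of 833 bases. Its level was 22561.9 TPM in the zygote against 8070.2 TPM in PB2. These levels are 2.26% of a full zygote library and 0.807% of a full PB2 library. The log2 ratio was -1.48, a level 2.80 times higher in the zygote. Dppa3 ranked 1 of 11262 genes in the zygote and 13 in PB2, so it was an abundant transcript of both. Only 251 genes compared (2.36%) had a lower log2 ratio.

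The next 4 genes of the table by zygote level were closer in level between the libraries than Dppa3. After Dppa3, the zygote's leading genes were Mphosph6 at 19692.7, Bcl2l10 at 18407.3, Btg4 at 16642.4 and Oosp1 at 13021 TPM. In PB2 the leading genes were Zbed3 at 25991, Bcl2l10 at 22397.3, Mphosph6 at 13058.8, Omt2b at 12065 and Tcl1 at 12011.9 TPM. Over the 155 genes that reached 1000 TPM in 1 library or both, the median log2 ratio was -0.35, and 28 were higher by 2-fold or more in the zygote against 18 in PB2. Of these 155 genes, 5 had a log2 ratio at or below that of Dppa3. Besides Dppa3 itself they were Fbxw15 at -1.63, Obox7 at -1.59, Oog4 at -1.54 and Fbxw28 at -1.52, genes named after their values were seen.

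The gene nearest to Dppa3 by the distance of log2(TPM + 1) over both libraries was Btg4, which acts in the clearance of maternal mRNA. Btg4 had 16642.4 TPM in the zygote against 9470.9 TPM in PB2, a log2 ratio of -0.81 at a distance of 0.50. The next were Mphosph6 at 0.72, Oosp1 at 0.88, Rfpl4 at 0.91 and Omt2b at 0.99. With 2 libraries this likeness rests on 2 values per gene.

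**Figure D2:**
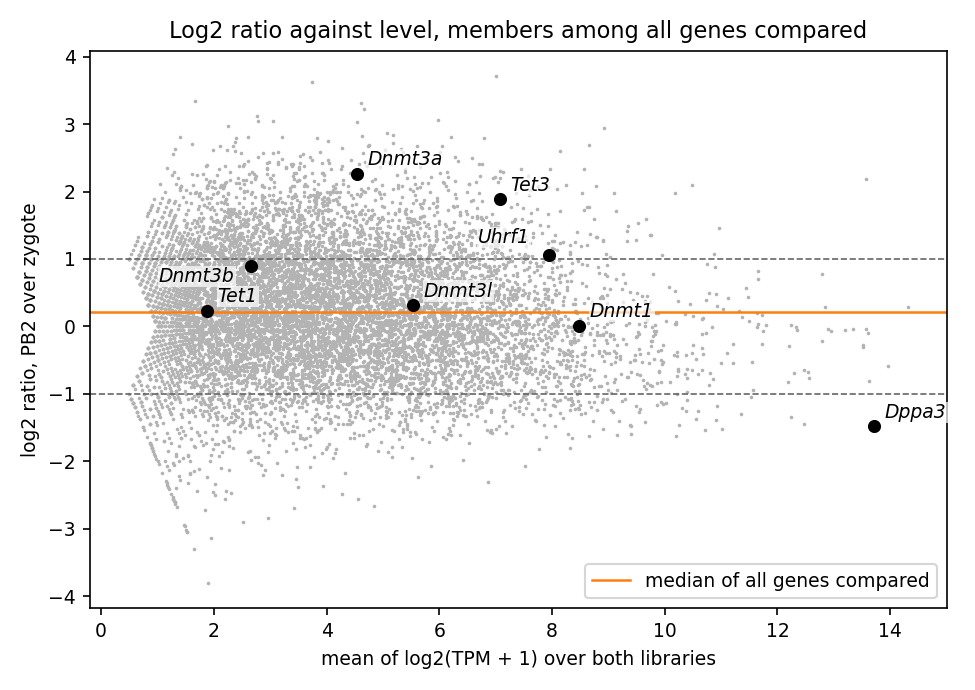
Log2 ratio of PB2 over zygote against the mean of log2(TPM + 1) of both libraries for every gene compared (grey) and the 8 members compared (black), with dashed lines at 2-fold and a coloured line at the median of 0.21. Dppa3 sits at the far right below the lower dashed line at -1.48, and Dnmt3a at 2.27 and Tet3 at 1.88 sit well above the upper one.

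The other genes named Dppa (developmental pluripotency associated), which are not all related in sequence, were also lower in PB2, by less. Dppa2, a partner of Dppa4 at early embryonic promoters, was at 269.7 TPM in the zygote and 218.7 in PB2. Dppa5a was at 193.2 and 120.6 TPM, Dppa1 at 43.9 and 26.7 TPM, and Dppa4 at 14.1 and 9.4 TPM. All 4 log2 ratios were below 0, from -0.70 to -0.30, with a median of -0.61 and none past 2-fold. Of all 10645 genes compared, 4262 were below 0.

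Dnmt1 (ENSMUSG00000004099), the maintenance methyltransferase, lies on the minus strand at chr9:20907209-20959888 and has 39 exons in its transcript of 5870 bases. It stood at 356.1 TPM in the zygote against 358.9 TPM in PB2, with a log2 ratio of 0.01 that lay between -0.57 and 0.01 under the other ways of processing. It ranked 382 in the zygote and 359 in PB2 and was the most abundant member after Dppa3 in both. Its nearest gene was Rln3, at 353.4 and 366.2 TPM.

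Uhrf1 (ENSMUSG00000001228), which recruits DNMT1, lies on the plus strand at chr17:56303321-56323486 with 17 exons and a transcript of 3586 bases. It stood at 169.7 TPM in the zygote against 353.1 TPM in PB2, a ratio of 2.08 and a log2 ratio of 1.05. Its rank went from 787 in the zygote to 365 in PB2. Within the zygote library there were 2.10 Dnmt1 transcripts for each Uhrf1 transcript, and within the PB2 library 1.02, so the pair was nearly equal in PB2 and apart in the zygote. The nearest gene to Uhrf1 was Ccdc117, at 168.3 and 352.1 TPM.

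Dppa3 stood against these partners at different ratios. For each Uhrf1 transcript the zygote library held 133 of Dppa3 and the PB2 library 22.9, a 5.82-fold difference. For each Dnmt1 transcript the values were 63.4 and 22.5. A ratio of 2 genes within a library does not depend on the library's total, although it still depends on how each gene was amplified. It also carries the GC and length trends given below. With the GC trend removed the log2 ratio was -1.44 for Dppa3 and 0.50 for Uhrf1.

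Dnmt3a (ENSMUSG00000020661), a de novo methyltransferase, lies on the plus strand at chr12:3806007-3914443 with 23 exons and a transcript of 9685 bases. It was at 9.6 TPM in the zygote against 50 TPM in PB2. The ratio was 5.21, between 5.18 and 5.24 when only the rounding of the table to 1 decimal is allowed for, and the log2 ratio was 2.27. It was the highest log2 ratio of the 8 members, and 124 of the genes compared (1.16%) had a higher one. Dnmt3a ranked 5426 in the zygote and 2488 in PB2. The gene nearest to it, F8a, was at 9.3 and 53.9 TPM.

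Dnmt3b (ENSMUSG00000027478), the other de novo methyltransferase, lies on the plus strand at chr2:153649450-153687730 with 24 exons. It was at 3.6 TPM in the zygote against 7.6 TPM in PB2. The ratio of the TPM values was 2.11, between 2.07 and 2.15 by rounding, while the log2 ratio with 1 TPM added was 0.90 and did not reach 2-fold. Its nearest gene was B3glct at 3.5 and 7.6 TPM.

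Dnmt3l (ENSMUSG00000000730), the inactive partner that acts in the oocyte to set maternal imprints, lies on the plus strand at chr10:78041947-78063622 with 14 exons. It was at 40.7 TPM in the zygote against 51.0 TPM in PB2, a ratio of 1.25 and a log2 ratio of 0.32. Its nearest gene was Nipbl, at 40.9 and 50.6 TPM.

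The makeup of the de novo group therefore differed between the libraries. Dnmt3a, Dnmt3b and Dnmt3l summed to 53.9 TPM in the zygote against 108.6 TPM in PB2. Dnmt3l made up 75.5% of that sum in the zygote and 47.0% in PB2, and Dnmt3a 17.8% and 46.0%. There were 4.24 Dnmt3l transcripts for each Dnmt3a transcript in the zygote and 1.02 in PB2. Of the 3 catalytic enzymes, Dnmt1 contributed 96.4% in the zygote and 86.2% in PB2, and their sum was 369.3 and 416.5 TPM.

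Tet3 (ENSMUSG00000034832), the oxidase of the zygote, lies on the minus strand at chr6:83362373-83459084 with 11 exons and a transcript of 10904 bases. It was at 69.5 TPM in the zygote against 258.9 TPM in PB2, a ratio of 3.73 and a log2 ratio of 1.88. Only 354 genes compared (3.33%) had a higher log2 ratio. Its rank was 1764 in the zygote and 532 in PB2, and its nearest gene was Stbd1 at 68.3 and 246.1 TPM. Tet3 and Dppa3, the enzyme and the protein that limits its reach, differed in opposite directions. There were 325 Dppa3 transcripts for each Tet3 transcript in the zygote and 31.2 in PB2, a 10.4-fold difference. With the GC trend removed their log2 ratios lay closer, at -1.44 for Dppa3 and 1.34 for Tet3. With the length trend removed they were -1.10 and 1.66.

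Tet1 (ENSMUSG00000047146), on the minus strand at chr10:62804570-62908996 with 13 exons, is best known from pluripotent cells. It was at 2.4 TPM in the zygote against 3.0 TPM in PB2, a ratio of 1.25 with rounding bounds of 1.2 and 1.3. Prss3 had the same pair of values. Tet2 (ENSMUSG00000040943), on the minus strand at chr3:133463679-133545139 with 11 exons, was at 0.6 TPM in the zygote and was listed at 0 in PB2, so no fold is given. Pik3c2g had the same pair of values. Tet3 made up 95.9% of the summed TET level of 72.5 TPM in the zygote and 98.9% of the 261.9 TPM in PB2.

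In both libraries the members kept the same order of level: Dppa3, Dnmt1, Uhrf1, Tet3, Dnmt3l, Dnmt3a, Dnmt3b, Tet1 and Tet2. The steps between neighbours in this order were not the same. Dnmt1 and Uhrf1 were close in PB2 and apart in the zygote, as were Dnmt3l and Dnmt3a. Some pairs, named after their values were seen, kept nearly the same ratio. Dnmt3l to Tet1 was 17.0 in both libraries, and Uhrf1 to Dnmt3b was 47.1 in the zygote and 46.5 in PB2. Tet1 is low, and rounding alone allows 16.6 to 17.3 in the zygote and 16.7 to 17.3 in PB2. With the GC trend removed the log2 ratios were -0.21 for Dnmt3l and 0.37 for Tet1, and 0.50 for Uhrf1 and 0.39 for Dnmt3b. Without Dppa3, the other 8 members summed to 652.2 TPM in the zygote against 1082.5 TPM in PB2.

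The log2 ratio moved with the GC content of transcripts across the table. From the lowest to the highest of 10 equal groups of genes by GC content, the median log2 ratio went from -0.36 to 0.93. Dnmt1, Uhrf1, Dnmt3b, Dnmt3l and Tet3 have transcripts of 53.1 to 54.0% GC, in a group of 1061 genes whose median was 0.58 and of which 30.5% were higher by 2-fold or more in PB2. Dnmt3a, at 51.9% GC, is in a group with a median of 0.40. With the fitted GC trend taken out, the log2 ratio was 1.85 for Dnmt3a, 1.34 for Tet3, 0.50 for Uhrf1, 0.39 for Dnmt3b, -0.21 for Dnmt3l and -0.57 for Dnmt1. Dppa3, at 45.3% GC in a group with a median of -0.11, kept -1.44. Across the table, removing the trend left 963 genes higher by 2-fold or more in PB2 and 1162 in the zygote. Whether the GC trend arose in amplification or in the embryo was not tested.

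**Figure D3:**
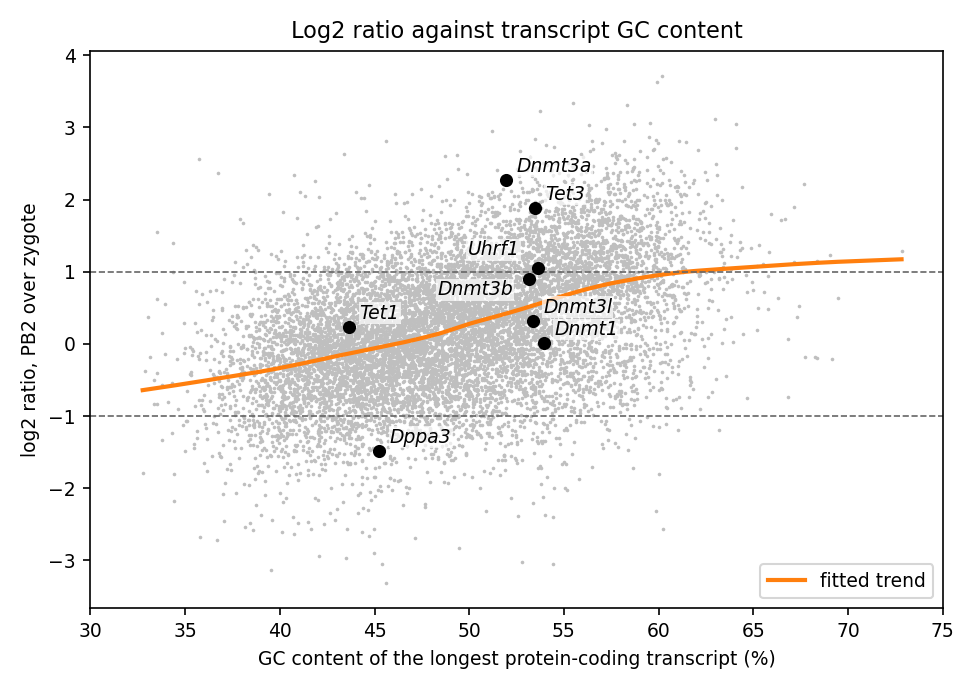
Log2 ratio of PB2 over zygote against the GC content of the longest protein-coding transcript, in percent, for all genes compared (grey) and the members (black), with the fitted trend as a line and dashed lines at 2-fold. Dnmt3a and Tet3 lie far above the trend and Dppa3 far below it, while Uhrf1 and Dnmt3b lie nearer to it and Dnmt3l and Dnmt1 lie below it.

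Transcript length also tracked the ratio. With its trend removed the log2 ratio was -1.10 for Dppa3, whose transcript of 833 bases is short beside the table's median of 3158, and 2.02 for Dnmt3a, 1.66 for Tet3 and 0.70 for Uhrf1. Removing the length trend left 1284 genes higher by 2-fold or more in PB2 and 1242 in the zygote. At 1.5-fold, 4 members were higher in PB2 (background 34.2%) and 1 in the zygote (18.1%). At 4-fold, Dnmt3a alone was higher in PB2 (2.48%) and no member in the zygote (0.695%).

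**Figure D4:**
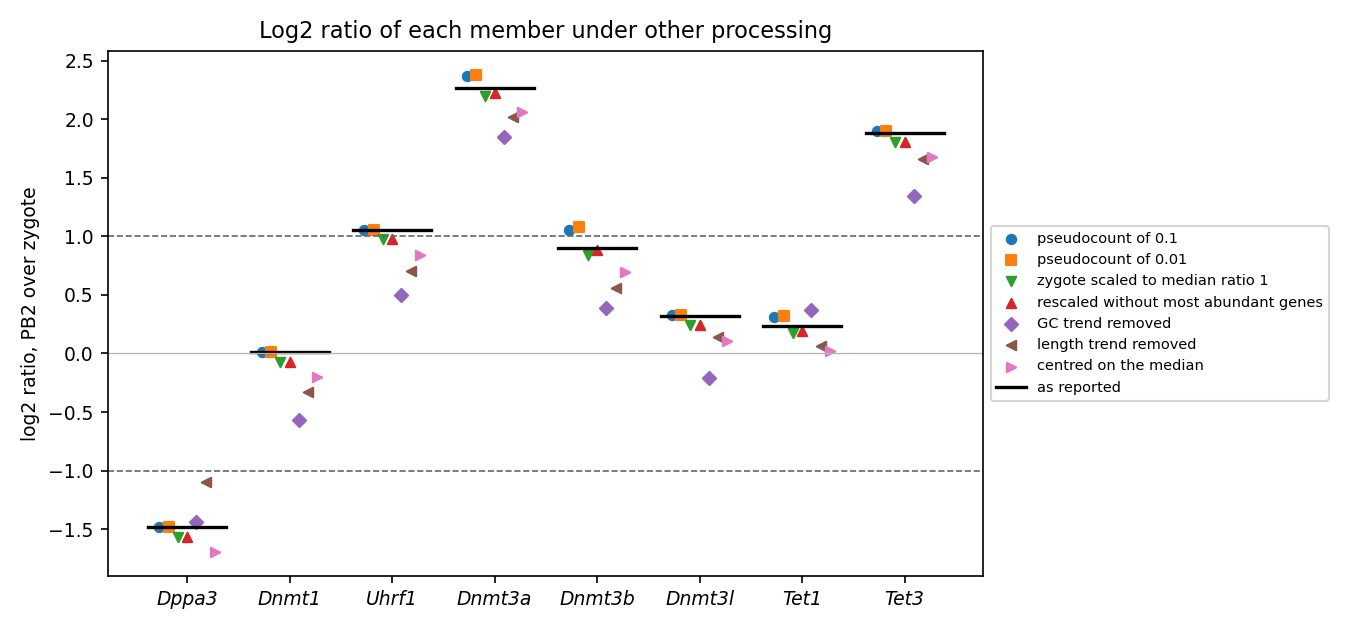
Log2 ratio of PB2 over zygote for the 8 members compared, as reported (black bars) and under 7 other ways of processing (coloured symbols), with dashed lines at 2-fold. Dppa3 stays at or below -1.10 and Dnmt3a and Tet3 stay at or above 1.34, while Uhrf1 goes below the upper dashed line under 5 of the 7.

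Genes that work with the members were described by list. Of 88 listed genes, 78 were in the table and 75 were compared, and 16 (21.3%) were higher by 2-fold or more in PB2 and 5 (6.67%) in the zygote, with a median of 0.10. These shares are close to the 18.9% and 8.09% of all genes. With the GC trend removed, 6 of the 16 and 4 of the 5 still passed, and 1 and 2 other genes passed. Among 13 partners of methylation maintenance, 1 passed 2-fold, the acetyltransferase Kat5 at 35.9 TPM in the zygote and 73.1 in PB2, and the median log2 ratio was 0.20. Pcna, the replication clamp, was the highest of them at 272.5 and 260.6 TPM. The list of methyl-CpG readers includes genes by their MBD name, which does not itself mark a reader. Of its 7 genes compared, 3 had a log2 ratio above 0 and 4 below, with a median of -0.13. Past 2-fold, Mbd6 (1.2 and 8.2 TPM) and Mbd3 (8.1 and 17.5 TPM) were higher in PB2 and Mbd1 (7.6 and 3.0 TPM) in the zygote. With the GC trend removed, the log2 ratio of Kat5 was 0.40 and that of Mbd3 -0.01, below 2-fold, while Mbd6 at 1.03 and Mbd1 at -1.39 still passed. Uhrf2, the paralog of Uhrf1, was at 0.6 and 0.1 TPM.

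The genes that remove oxidised or deaminated bases were divided. Of 12 compared, 4 (33.3%, beside 18.9% of all genes) were higher by 2-fold or more in PB2. They were the uracil glycosylases Smug1, at 26.8 TPM in the zygote and 98.2 in PB2, and Ung, at 8.9 and 33.8, with Neil2 at 11.5 and 30.6 and the scaffold gene Xrcc1 at 3.3 and 7.6. Gadd45g, at 5.5 and 0.3 TPM, and the repair polymerase Polb, at 212.1 and 70.0 TPM, were higher in the zygote (16.7%, beside 8.09% of all genes). Neil3 was the most abundant, at 369.5 and 258.7 TPM. With the GC trend removed, Smug1 still passed at 1.57, while Ung at 0.98, Neil2 at 0.87 and Xrcc1 at 0.08 did not, and Gadd45g and Polb passed as before. The median log2 ratio of the list was -0.07, and -0.34 after this removal.

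Of 14 genes that protect imprints or steer de novo methylation, Trim28, the corepressor that ZFP57 binds, was at 24.3 TPM in the zygote and 91.4 in PB2. The insulator gene Ctcf was at 55.9 and 150.6 TPM. These 2 (14.3%, beside 18.9% of all genes) passed 2-fold in PB2 and none in the zygote, and the median was 0.31. Without the GC trend Ctcf still passed at 1.40 and Trim28 did not, at 0.93. Zfp57 itself was the highest, at 1160.8 and 825 TPM. The list of TET regulators, of which 10 were compared, had 4 genes (40%, beside 18.9% of all genes) higher by 2-fold or more in PB2. They were Cxxc1 at 7.1 and 24.5 TPM, Ddb1 at 61.7 and 187.2, Cul4a at 2.9 and 7.9, and Ogt, which encodes a sugar transferase that binds TET proteins, at 20.2 and 41.6. Cxxc1 is listed by its CXXC name and is not itself an established TET regulator. Cul4b (10%, beside 8.09% of all genes) was higher by 2-fold or more in the zygote, at 210.7 and 104 TPM. Rbx1, the ring subunit of the same ligases, was highest at 1191.6 and 643.3 TPM. With the GC trend removed, Ogt and Ddb1 still passed, Cxxc1 at 0.77, Cul4a at 0.99 and Cul4b at -0.73 did not, and the list's median went from 0.61 to -0.08.

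Of 15 genes of the methyl donor cycle, 3 (20%) were higher by 2-fold or more in PB2 and 1 (6.67%) in the zygote. The shares of all genes were 18.9% and 8.09%. With the GC trend removed, 1 gene of this list passed in each direction. Ahcyl2 (1.2 and 3.8 TPM) passed in PB2 with and without the trend, at 1.13 and 1.02, and Shmt2 (54.5 and 114 TPM) passed at 1.05 but not without the trend, at 0.22. Mat2b, the regulatory subunit of the enzyme that makes S-adenosylmethionine, was at 1542.5 TPM in the zygote against 702 TPM in PB2 and passed in the zygote both ways. The median of the list was 0.26.

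**Figure D5:**
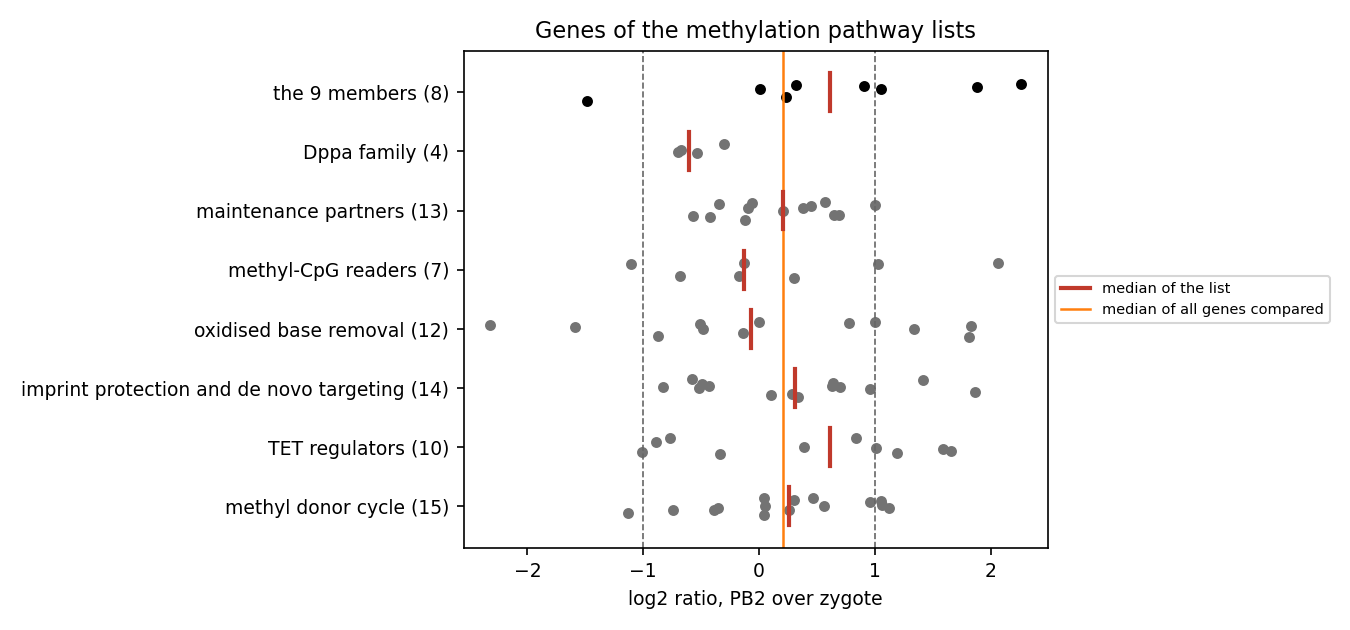
Log2 ratio of PB2 over zygote of each gene compared in the members (top row) and in 7 lists of related genes (number of genes in brackets), with a bar at each list's median, a line at the median of all genes and dashed lines at 2-fold. The members spread from -1.48 to 2.27, and the Dppa list lies wholly below 0.

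The labelled cells were checked by markers. All 13 egg genes were present, summing to 26376.5 TPM in the zygote against 31808.9 TPM in PB2, with Oosp1 highest at 13021 and 10495.6 TPM. Their median log2 ratio was 0.78, with 4 (30.8%) higher by 2-fold or more in PB2, beside 18.9% of all genes, and none in the zygote. With the GC trend removed, the median of the egg genes was 0.18 and 2 of the 4 still passed. Of 11 cumulus and granulosa genes, 2 had a row, Cyp19a1 at 72.2 and 70.9 TPM and Fshr at 2.2 and 3.3 TPM, and their sum was 74.4 and 74.2 TPM. Of 6 sperm genes, 2 had a row, Prm2 at 19.8 and 22 TPM and Akap4 at 1 and 0.6 TPM. No row was held for 5 blood genes, and the genes without a row were not analysed here. Of 8 early genome activation genes, 4 had a row, the highest being Zscan4d at 8.6 and 0.7 TPM. Of these 4, 2 had a log2 ratio above 0 and 2 below, with a median of 0.29, and only Zscan4d passed 2-fold. The part of egg, cumulus or sperm RNA in the members' differences was not tested.

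Near-identical copies could share reads with 3 members, and how the counting treated such reads is not given in the sources used here. Dppa3 has a processed copy, Dppa3-ps, at chrX:37625647-37626097, 98.2% identical over 451 bases, and a further copy, Gm47576, 91.1% identical over 450 bases. Dppa3 and Dppa3-ps differ at 8 of the 451 bases. The stretch below, from position 231 to 290 of the Dppa3 transcript, was chosen to hold the most differences for its length. The 3 bases that differ are in capitals.
Dppa3: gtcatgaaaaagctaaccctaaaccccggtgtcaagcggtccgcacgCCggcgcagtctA
Dppa3-ps: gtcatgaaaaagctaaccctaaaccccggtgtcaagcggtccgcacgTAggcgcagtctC

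Uhrf1 has a copy, Gm5648, at chrX:121334988-121336574, 98.3% identical over 1590 bases. Dnmt3b shares 1434 bases at 93.9% identity with its paralog Dnmt3c, which was at 0.6 TPM in the zygote against 2.6 TPM in PB2. The pseudogenes had no row, so the split of their reads was not tested. Dnmt3l overlaps Aire on the opposite strand, and Dnmt3a, Dnmt3b, Tet2 and Tet3 overlap antisense or noncoding genes on the opposite strand, which an unstranded count could not tell apart.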

How the data were processed

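PolyA RNA of pooled PB2s and of pooled zygotes was amplified with a single-cell full-length kit and sequenced, 1 library each. The submitters' processing notes name CASAVA, HISAT2 2.0.4, HTSeq 0.6.1p1 and DESeq2 1.18.1. They name both a rabbit and a mouse genome build, and all gene IDs are mouse. The values deposited by the authors are TPM rounded to 1 decimal, and how TPM was made is not given in the sources used here. The zygote library sums to 927063 TPM and the PB2 library to 898326 TPM over the table. These are 92.7% and 89.8% of a full library, so part of each library has no row. Every rank therefore holds only among the 11262 genes given.

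Log2 ratios were computed with a pseudocount of 1 for genes with at least 1 TPM in either library, with no test. GC content and length came from the longest protein-coding transcript in GENCODE M21 (11221 genes matched), and their trends were fitted by loess (span 0.3) with statsmodels 0.14.6. Copies were sought with BLAST 2.17.0 (at least 90% identity over 300 bases). Python 3.11.15, numpy 2.4.6, pandas 2.3.3 and matplotlib 3.10.9 were used, and the trend removal was tested on simulated data. Named genes are the members, up to 4 genes past 2-fold in each direction and the highest gene of each list, the 5 highest genes of each library, the 5 nearest to Dppa3 and the nearest to each other member, and the highest gene of each marker list. A gene that this rule names is not reported here. The members and lists were chosen with earlier results of these data known.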

Additional observations from a re-analysis of the deposited data

How the results depend on the processing

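With 1 library each, no alternative can stand in for replicate error, and low genes such as Tet1, Tet2 and Dnmt3b rest on few rounded units. No paired analysis was possible because each group has 1 library and no test was run. Over 11 other settings, 173 values stayed within 0.5 (log2 values) or 1.5 times (counts) of those reported, 14 did not, and 0 values past 2-fold changed sign. Changing the TPM minimum cannot move a single gene's log2 ratio, so part of the 173 was fixed in advance. The values that moved included the log2 ratios of Dnmt1, Dnmt3b, Dnmt3l, Uhrf1 and Tet3 with the GC trend removed. List medians near 0 did change sign. The ranges were -0.10 to 0.21 for the maintenance partners, -0.06 to 0.33 for the methyl donor cycle and -0.48 to 0.01 for the methyl-CpG reader list. Removing the GC trend left 963 genes at least 2-fold higher in PB2 and moved the median of the TET regulators to -0.082, and removing the length trend left 1284 genes. A threshold of 1.5-fold gave 3642 genes for PB2 and 1924 for the zygote, and 4-fold gave 264 and 74, of which 1 and 0 were members. With a pseudocount of 0.1 or 0.01, 4 members passed 2-fold in PB2, Dnmt3b being added, beside 2617 and 2632 genes of the table. Scaling to a median ratio of 1, rescaling without the most abundant genes, removing either trend or centring left 2, without Uhrf1. Genes of the table passing in PB2 then numbered 1779 with scaling, 1986 with rescaling and 1383 with centring. Centring was chosen after seeing the data.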
